A study of Mus musculus with 8 samples.

Results

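A set of 8 complement genes known to be made by macrophages was followed in peritoneal macrophages: the C1q chains C1qa, C1qb and C1qc, the components C2, C3 and C4b, factor B (Cfb) and properdin (Cfp). They were chosen by gene name, and each was read from the probe with the highest mean intensity over all arrays. All 8 were measured and tested, out of 37018 genes and transcripts on the array. Cells came from LysMCre-fur(fl/fl) mice (FURIN KO) and WT littermates on a C57BL/6 background, and either received no stimulus or LPS (1 μg/ml, for 1, 4 or 24 h). Each of these 8 groups had 2 samples. No untreated samples matched in time were taken beside the LPS samples, so LPS and hours in culture cannot be told apart below. The Cre is driven by the lysozyme M promoter, so both floxed alleles of the protease gene Furin are deleted only in myeloid cells in which that promoter is active, and other adherent cells keep them. The cultures were washed adherent cells from the peritoneal cavity, not a sorted population. Neither the age of these mice nor any pooling of animals is stated. At each time the 2 genotypes were hybridised together on Agilent 2-colour arrays; the KO sample carried Cy5 on the array of replicate 1 and Cy3 on that of replicate 2, so that replicate number and dye orientation cannot be told apart.

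Complement is a cascade of plasma proteins that marks microbes and dying cells for uptake. In the classical pathway, C1q, a hexamer of trimers made of the chains A, B and C, binds immune complexes or apoptotic cells and the attached proteases then cleave C4 and C2, whose fragments form a C3 convertase. In the alternative pathway the convertase is built from C3b and factor B, which is homologous to C2, and properdin stabilizes it. Both pathways end in the cleavage of C3, the central component. The liver makes most circulating complement, whereas C1q comes mainly from macrophages and dendritic cells and properdin from leukocytes.

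The Furin signal itself was lower in the KO channel on both unstimulated arrays (log2 KO/WT of −0.59 and −0.85), both 1 h arrays (−0.56 and −0.55) and both 24 h arrays (−0.59 and −0.69). On the 4 h arrays it was not (0.00023 and 0.33). The libraries labelled KO at 4 h therefore do not show the targeted gene lowered, which touches every KO value at 4 h below. Lyz2, the gene of lysozyme M into which the Cre is placed, was lower in the KO channel on those arrays (−1.04 and −1.13), as it was on the unstimulated (−1.06 and −0.74), 1 h (−1.09 and −0.88) and 24 h arrays (−1.85 and −1.61). The paper reports Furin mRNA as nearly gone from macrophages of these mice, a larger loss than the array ratios show at any time. Which part of the Furin transcript the probe reads was not examined. In the mean over the time points Furin was 1.35-fold lower in KO (adjusted p = 0.022 in the limma fit). This call was lost when any array but 24 h replicate 1 was left out, its log2 value staying at −0.40 to −0.48. Furin was called at no single time, except with the replicate number as a block. The block called it unstimulated (adjusted p = 0.0123), at 1 h (0.0477), at 24 h (0.0227) and in the mean (0.00103), but not at 4 h (0.727). The LPS-induced genes Il6 and Il1b were called higher after 1, 4 and 24 h in both genotypes. Without LPS their log2 KO/WT ratios were 1.25 and 1.34, not called (adjusted p = 0.211 and 0.163) except with the replicate number as a block (0.0287 and 0.0135). All 6 measured markers of peritoneal macrophages were above background in each of the 16 channels, but so were all 7 measured B cell markers and 4 of 6 T and NK cell markers, so transcripts of other cells were measured as well. In RNA from whole cultures, fewer cells of a type and less RNA per cell cannot be told apart. All probes of the 8 complement genes were well above background in all 16 channels, with no saturated or outlier spot.

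Transcripts of the 3 C1q chains fell together and steeply over the hours of LPS, in both WT and FURIN KO macrophages. Levels are given as normalized log2 intensities, and each is compared only with other values of the same probe. C1qa was at 16.14 and 15.69 in unstimulated WT cells, 16.03 and 15.32 after 1 h, 14.66 and 13.83 after 4 h, and 12.82 and 12.23 after 24 h (replicates 1 and 2). In KO cells it was at 15.89 and 16.01, then 15.67 and 15.69, 14.54 and 14.13, and 12.51 and 12.64. The samples at 4 h lay below, and those at 24 h far below, every unstimulated and 1 h sample of their genotype. At 24 h the fall was 10.5-fold in WT (log2 −3.39 ± 0.28, SE, n = 2 against 2, adjusted p = 5.3e-07) and 10.4-fold in KO (log2 −3.38, adjusted p = 5.97e-07). A gene is called here when its adjusted p in the limma fit over all genes and transcripts is under 0.05.

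C1qb started at 15.50 and 14.95 in WT and ended at 11.72 and 10.73 after 24 h of LPS. Its KO levels went from 15.49 and 15.44 to 11.66 and 11.65. This was a 16-fold fall in WT (log2 −4.00 ± 0.31, adjusted p = 2.87e-07) and a 14-fold fall in KO (log2 −3.80, adjusted p = 5.05e-07). C1qc fell furthest on this scale, from 16.03 and 15.53 to 11.12 and 10.53 in WT and from 16.02 and 15.88 to 11.06 and 11.09 in KO. The fold changes were 31-fold in WT (log2 −4.96 ± 0.24, adjusted p = 3.14e-09) and 29.2-fold in KO (log2 −4.87, adjusted p = 4.2e-09). The C1qc probe was printed in 10 spots, and its level varied over the spots of an array with an SD of 0.0869 to 0.136 log2 units.

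The time course of the C1q chains had the same order in both genotypes, from unstimulated through 1 h and 4 h to 24 h. At 1 h the changes were small (log2 −0.23 to −0.41) and none was called, except C1qc in KO with the replicate number as a block (−0.41, adjusted p = 0.0188). By 4 h all 3 chains were called in WT, with C1qa at log2 −1.67, C1qb at −1.25 and C1qc at −1.87, and in KO (−1.62, −1.13 and −1.80). Between 4 and 24 h each fell again, with log2 changes of −1.72 (C1qa), −2.76 (C1qb) and −3.09 (C1qc) in WT and −1.76, −2.68 and −3.07 in KO, all called. The one step between neighbouring times after 1 h that was not called was that of C1qb from 1 to 4 h in KO (log2 −0.81, adjusted p = 0.0668), which passed with the replicate number as a block (adjusted p = 7.92e-05). The same step of C1qb in WT (−1.01, adjusted p = 0.0242) was lost without 1 h replicate 1 (−0.59, adjusted p = 0.29) or 4 h replicate 2 (−0.71, adjusted p = 0.237). The C1qb calls at 4 h against unstimulated also depended on single arrays: without replicate 2 at 4 h they were lost in WT (adjusted p = 0.0907) and in KO (adjusted p = 0.0616), as they were without replicate 1 of the unstimulated samples (adjusted p = 0.0897 and 0.0521).

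**Figure D1:**
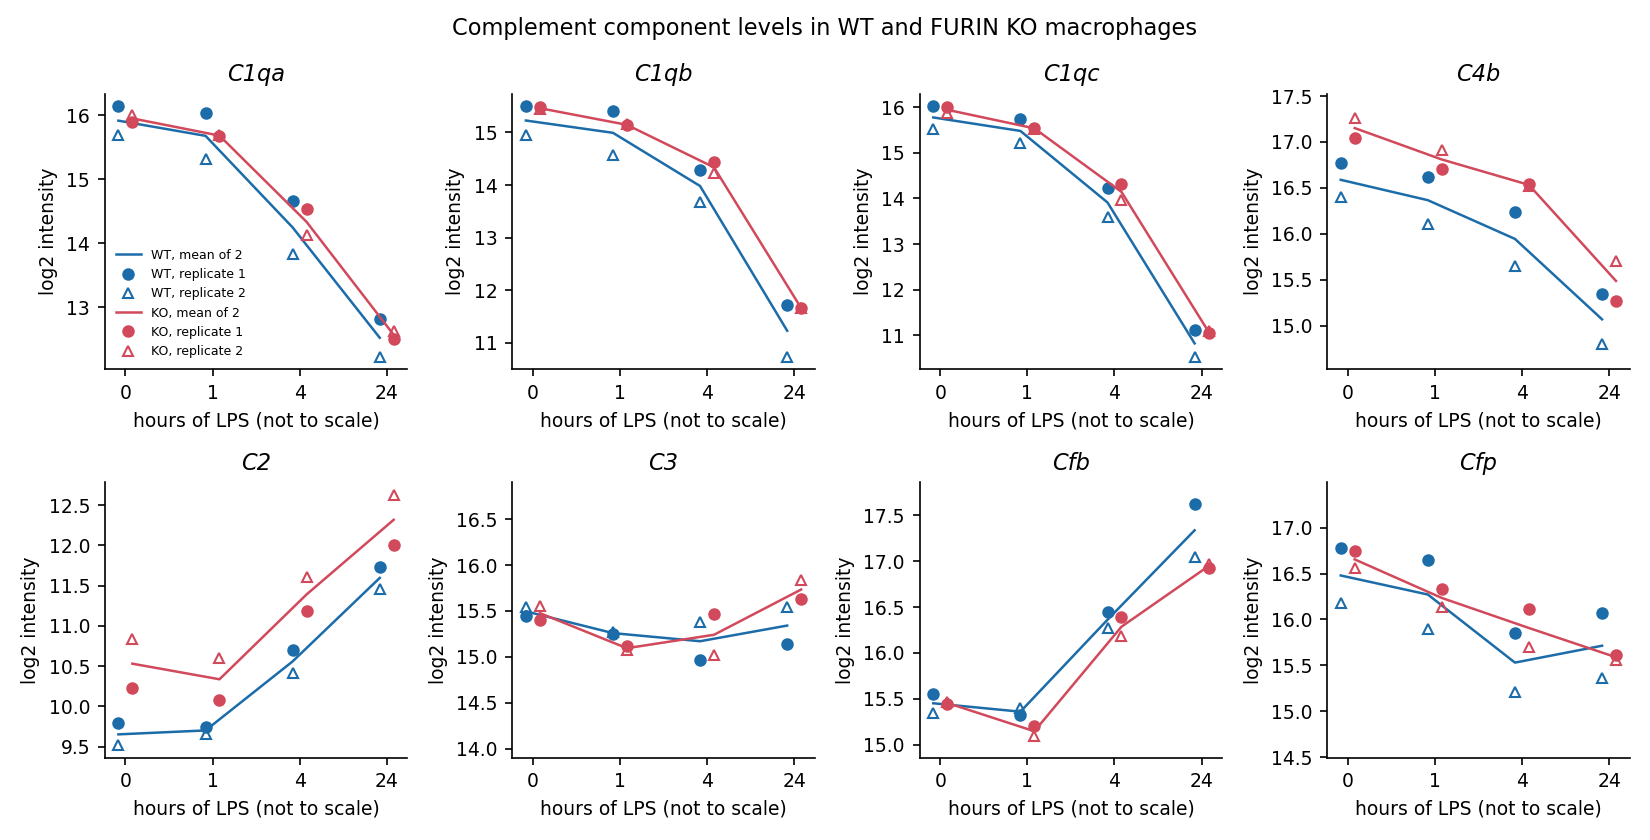
Normalized log2 intensity (y axis) of each of the 8 genes at 0, 1, 4 and 24 h of LPS (x axis, not to scale), in WT (blue) and FURIN KO (red) macrophages; filled circles are replicate 1, open triangles replicate 2 and lines the mean of 2. The C1q chains and C4b descend, C2 and Cfb climb after 1 h, and C3 stays within 14.96 to 15.84; KO means lie above WT at every time for C2, C4b and the C1q chains.

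Promoter sequences of the genes that moved together, and of C3, which did not move with them, are shown with a few motifs of factors known from macrophages. The RefSeq promoter table (GRCm38.p6) holds 4 of the 8 genes. For C1qb and C1qc, whose genes lie next to each other with C1qa on chromosome 4, and for C3 on chromosome 17, the 250 bases before the annotated start are printed 5′ to 3′ on the gene's own strand, which is the minus strand for each. The stretches are chr4:136886201-136886450 for C1qb, chr4:136892915-136893164 for C1qc and chr17:57228137-57228386 for C3. Capitals mark matches, on either strand, to GAGGAA (the core bound by PU.1 and other ETS factors), TGCTGA (part of the Maf recognition element), TTGCNNAA (C/EBP) or TATAAA (a core promoter element). The 4 motifs do not share letters in these matches.
C1qb: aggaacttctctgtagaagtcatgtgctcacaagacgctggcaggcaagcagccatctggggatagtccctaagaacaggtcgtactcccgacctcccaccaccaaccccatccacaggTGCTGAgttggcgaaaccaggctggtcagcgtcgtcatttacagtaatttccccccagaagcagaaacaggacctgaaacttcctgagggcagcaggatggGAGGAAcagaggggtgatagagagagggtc
C1qc: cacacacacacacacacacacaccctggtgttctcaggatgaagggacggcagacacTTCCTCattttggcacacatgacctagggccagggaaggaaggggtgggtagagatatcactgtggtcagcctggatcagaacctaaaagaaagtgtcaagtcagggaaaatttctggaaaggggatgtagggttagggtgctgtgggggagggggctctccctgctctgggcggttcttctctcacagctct
C3: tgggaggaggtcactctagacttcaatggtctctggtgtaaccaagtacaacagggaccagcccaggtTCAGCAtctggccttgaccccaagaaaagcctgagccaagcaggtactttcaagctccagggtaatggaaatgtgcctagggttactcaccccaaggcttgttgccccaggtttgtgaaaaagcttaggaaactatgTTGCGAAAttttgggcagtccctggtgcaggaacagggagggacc

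Both C1q stretches held GAGGAA, at position −30 from the start in C1qb on the gene's strand and at −193 in C1qc on the opposite strand. GAGGAA was present in 23.3% of the 32851 promoters of this length, so its presence in both is a description only. The C1qb stretch also held TGCTGA, at −131, and so did that of C3, at −182 on the opposite strand (16.1% of promoters hold it). Only the C3 stretch of the 3 held the C/EBP letters, at −45 (9.56% of promoters), and none of the 3 held TATAAA (12.4%). The stretch of Cfp, which is in the table too, held none of the 4 motifs and is not printed.

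The remaining classical pathway genes moved in opposite directions after LPS. C4b, which encodes the component whose larger fragment anchors the classical convertase, stood at 16.77 and 16.41 in unstimulated WT cells and at 15.34 and 14.80 after 24 h. Its KO levels were 17.05 and 17.26 without LPS and 15.27 and 15.71 after 24 h. The 24 h samples lay below every other sample of their genotype. The fall at 24 h was 2.86-fold in WT (log2 −1.52 ± 0.24, adjusted p = 0.000235) and 3.17-fold in KO (log2 −1.66, adjusted p = 0.000112). At 4 h the C4b change did not pass in WT (log2 −0.64, adjusted p = 0.0575) or KO (−0.62, adjusted p = 0.066), but passed with the replicate number as a block (adjusted p = 0.000268 and 0.000367). Without the block the WT value was −0.35 when 4 h replicate 2 was left out (adjusted p = 0.45) and −0.94 when 4 h replicate 1 was (adjusted p = 0.0259). Mouse C4a is nearly identical to C4b and no probe was named for it, so signal of C4a in the C4b probe cannot be told apart.

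C2, which supplies the protease of the classical convertase, rose instead. In WT cells its level was 9.79 and 9.52 without LPS, 9.75 and 9.65 after 1 h, 10.71 and 10.41 after 4 h, and 11.73 and 11.46 after 24 h. In KO cells it was 10.22 and 10.84, then 10.08 and 10.60, 11.18 and 11.60, and 12.01 and 12.63. The 4 h and 24 h samples of each genotype did not overlap with its earlier samples. C2 was 3.85-fold higher at 24 h in WT (log2 1.94 ± 0.26, adjusted p = 3.94e-05) and 3.45-fold higher in KO (1.79, adjusted p = 8.95e-05). At 4 h the rise was 1.87-fold in WT (adjusted p = 0.0123) and 1.82-fold in KO (adjusted p = 0.0162). The 4 h calls of C2 were among the less stable: with loess alone and no scaling between arrays the WT rise was 0.49 log2 units (adjusted p = 0.242) and the KO rise 0.52 (adjusted p = 0.213). The 4 h call was also lost in WT without unstimulated replicate 2 (adjusted p = 0.0683) or 4 h replicate 1 (adjusted p = 0.091), and in KO without unstimulated replicate 1 (log2 0.55, adjusted p = 0.195) or 4 h replicate 2 (adjusted p = 0.143).

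C3, on which all pathways converge, differed from the unstimulated level by less than the test could call at every time. Its WT values were 15.45 and 15.55 without LPS, 15.24 and 15.27 after 1 h, 14.96 and 15.38 after 4 h, and 15.14 and 15.55 after 24 h. KO values were 15.41 and 15.55, then 15.12 and 15.07, 15.46 and 15.02, and 15.63 and 15.84. The 24 h change was −0.15 log2 units in WT (95% confidence interval −0.53 to 0.22) and 0.26 in KO (−0.12 to 0.63), and both intervals span 0. With loess alone and no scaling between arrays the KO change at 24 h was 0.65 and called (adjusted p = 0.0194). At 4 h C3 was called lower in WT without 4 h replicate 2 (−0.53, adjusted p = 0.0235) and in KO without 4 h replicate 1 (−0.46, adjusted p = 0.0477). In KO cells C3 was higher at 24 h than at 4 h (log2 0.49, adjusted p = 0.0463) and than at 1 h (0.64, adjusted p = 0.013), whereas in WT the same steps were 0.17 and 0.08 and not called. The former call is fragile: the other C3 probe gave 0.30 (adjusted p = 0.12), Aquantile scaling 0.45 (adjusted p = 0.0597), the mean of both probes 0.40 (adjusted p = 0.0569), and it was lost without 4 h replicate 2 (0.27, adjusted p = 0.266), 24 h replicate 2 (0.38, adjusted p = 0.222) or any of the unstimulated or 1 h arrays (adjusted p = 0.0697 to 0.0735). The test of KO response against WT response of C3 at 24 h, from unstimulated, gave 0.41 (95% confidence interval −0.14 to 0.96) and was not called. Whether the steps from 4 to 24 h and from 1 to 24 h differ between genotypes was not tested. Values with an array left out or other scaling are not given for the KO call from 1 to 24 h.

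In the alternative pathway the 2 genes again went opposite ways. Factor B, the protease of the alternative convertase, was at 15.56 and 15.35 in unstimulated WT cells, 15.32 and 15.40 after 1 h, 16.45 and 16.28 after 4 h, and 17.63 and 17.04 after 24 h. In KO cells Cfb was at 15.44 and 15.47, then 15.20 and 15.09, 16.39 and 16.18, and 16.92 and 16.97. Its 24 h samples were the highest of each genotype. The rise at 24 h was 3.68-fold in WT (log2 1.88 ± 0.16, adjusted p = 5.09e-07) and 2.81-fold in KO (1.49, adjusted p = 5.13e-06). At 4 h Cfb was already up 1.88-fold in WT (adjusted p = 0.000309) and 1.78-fold in KO (adjusted p = 0.000657). C2 and Cfb are neighbouring, homologous genes on chromosome 17, each read here from a probe of its own.

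Properdin transcripts declined. Cfp was at 16.78 and 16.18 in unstimulated WT cells, 16.65 and 15.90 after 1 h, 15.85 and 15.21 after 4 h, and 16.07 and 15.36 after 24 h. The KO values were 16.75 and 16.56, 16.33 and 16.14, 16.11 and 15.71, and 15.62 and 15.56. The WT samples at 4 and 24 h lay below both unstimulated samples, the closest being 16.07 against 16.18. Cfp fell by 0.95 log2 units at 4 h in WT (1.93-fold, adjusted p = 0.0183), a call lost without unstimulated replicate 1 (−0.65, adjusted p = 0.213) or 4 h replicate 2 (−0.63, adjusted p = 0.2). At 24 h in KO it fell by 1.06 (2.09-fold, adjusted p = 0.0111), a call lost without unstimulated replicate 1 (−0.97, adjusted p = 0.0662). The changes in WT at 24 h (−0.76, adjusted p = 0.0605) and in KO at 4 h (−0.75, adjusted p = 0.0582) passed with the replicate block (adjusted p = 3.2e-05 and 2.94e-05). Without the block they rested on single arrays. The WT value at 24 h was −0.41 without 24 h replicate 2 (adjusted p = 0.494), −0.46 without unstimulated replicate 1 (adjusted p = 0.427) and −1.12 without 24 h replicate 1 (adjusted p = 0.0296), and −0.39 with loess alone (adjusted p = 0.331). The KO value at 4 h ran from −0.54 without 4 h replicate 2 (adjusted p = 0.259) to −0.95 without 4 h replicate 1 (adjusted p = 0.0485).

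Counted over the 8 genes, at 4 h of LPS 2 rose and 4 fell in WT, where 15.5% of all genes and transcripts tested were called higher and 19.3% lower. In KO 2 rose and 3 fell at 4 h, against a background of 16.3% higher and 19.7% lower; without unstimulated replicate 1 or 4 h replicate 2 the 5 calls became 3. At 24 h 2 rose and 4 fell in WT (13.5% and 16.9% of all tested) and 2 rose and 5 fell in KO (12.8% and 15.9%). None was called at 1 h in WT or KO, where 8.55% and 7.54% of all tested were (4.91% and 3.95% without unstimulated replicate 1). At an unadjusted p under 0.05 the limma fit had 0 in WT (18.3% of all tested) and 1 in KO (C3, against 18.2%). The replicate block called C1qc (−0.41, adjusted p = 0.0188) and Cfp (−0.42, adjusted p = 0.0144) in KO at 1 h, against a background of 11.6%. The methods' t-test, run gene by gene on the same values and so with the same log2 changes, called after Benjamini-Hochberg adjustment none of these 4 h changes (4.97% of all tested in WT and 2.1% in KO). At 24 h it called none in WT (0.0325% of all) and in KO those of the C1q chains and Cfb but not of C2, C4b and Cfp (1.66%). The median change of the 8 genes at 24 h was −1.14 log2 units in WT and −1.36 in KO, and over all tested it was −0.015 and −0.014. Leaving out 1 h replicate 1 took the 5 calls in WT from 1 to 4 h to 3. From 1 to 4 h 5 of the 8 were called in WT (29.6% of all tested) and 4 in KO (31.8%), from 4 to 24 h 6 in WT (29.8%) and 7 in KO (30.8%), and from 1 to 24 h 6 in WT (27.6%) and 7 in KO (27.2%).

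**Figure D2:**
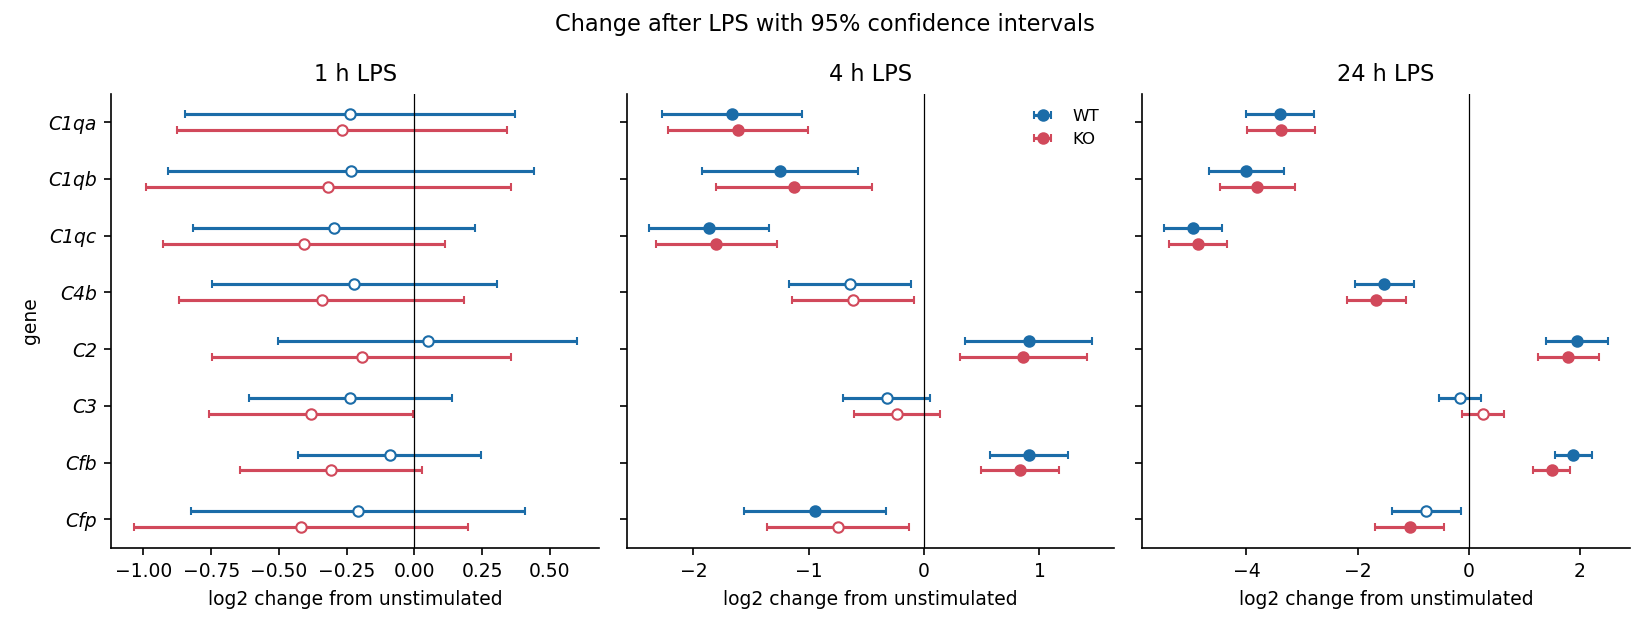
Log2 change from unstimulated (x axis) of each gene (y axis) after 1, 4 and 24 h of LPS, in WT (blue) and FURIN KO (red); points are estimates of the limma fit, bars their 95% confidence intervals, and filled points are called. None is filled at 1 h; at 24 h the C1q chains lie between −3.38 and −4.96 and C2 and Cfb between 1.49 and 1.94. The x axes differ between panels.

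Summed levels of cell type markers also moved with LPS. The summed log2 level of the 6 measured macrophage markers went from 18.57 to 19.18 in unstimulated samples to 16.91 to 17.46 at 24 h. This sum was mostly Lyz2 (up to 18.17) and Csf1r (up to 17.64). At 24 h both were lower in WT and in KO, Lyz2 with log2 changes of −2.09 and −2.92 and Csf1r with −2.03 and −2.33. Those of Adgre1, a surface marker of macrophages, were −0.26 and −0.36 and not called (adjusted p = 0.324 and 0.145). The 5 markers of large peritoneal macrophages went from 15.49 to 15.92 down to 14.04 to 14.35. The 4 of small peritoneal macrophages, with 3 of 4 above background without LPS and 2 of 4 at 24 h, went from 16.72 to 17.01 to 16.46 to 16.60. Their sum was mostly H2-Ab1 (16.26 to 17.10 over the 16 channels), with Irf4 at 10.68 to 13.53. The sum of the 5 dendritic cell markers went from 11.71 to 12.72 down to 9.57 to 9.67, with 2 of 5 above background at 24 h. The highest level among these 5 was that of Cd209a (5.99 to 12.62 over the 16 channels). The B cell list went from 16.01 to 16.71 down to 15.25 to 15.57, and the neutrophil list went from 11.25 to 11.66 up to 14.48 to 15.99. The neutrophil sum was mostly S100a8 (10.64 to 15.97 over the 16 channels). Of the other 5 neutrophil genes Camp lay between 7.59 and 9.89, and S100a9, Retnlg, Ngp and Mpo were above background in 0 channels. The mast cell list, with 5 of 6 above background in every channel, went from 12.88 to 13.74 down to 10.75 to 11.80, and the T and NK cell list from 12.08 to 13.20 to 11.89 to 12.44. The part of these shifts in the complement changes was not tested. The 13 markers of mesothelial cells and fibroblasts, cells that can make C3, C4 and factor B, summed to 10.61 to 10.84 without LPS and 11.48 to 11.83 at 24 h. Of the 13, 7 to 9 were above background without LPS and 6 to 7 at 24 h. The highest level in this list was that of Dcn (7.38 to 10.96 over the 16 channels). Dcn, Col1a2 and Krt18 were above background in all 16 channels, Upk3b and Upk1b in 1 each and Pdgfra in 0.

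No difference between FURIN KO and WT was called for any of the 8 genes at any single time. Of all genes and transcripts tested, the limma fit called 0% on the unstimulated arrays, 0% after 1 h, 0.00812% after 4 h and 0.0244% after 24 h. At an unadjusted p under 0.05 it had C2 unstimulated (5.75% of all tested), none of the 8 after 1 h (5.46%), C2 after 4 h (4.31%), and C2 and Cfb after 24 h (3.42%). C2 was higher in KO on all 8 arrays. Its log2 KO/WT ratio was 0.43 and 1.32 unstimulated, 0.33 and 0.94 after 1 h, 0.47 and 1.19 after 4 h, and 0.27 and 1.17 after 24 h (replicates 1 and 2). Every ratio was positive, and at each time that of replicate 2 exceeded that of replicate 1. Averaged over the time points C2 was 1.70-fold higher in KO (log2 0.77 ± 0.14, 95% confidence interval 0.45 to 1.09, adjusted p = 0.0586) and was not called. This fit treats the 8 arrays as independent, although the ratios of a replicate number deviated together across times (r of 0.475 to 0.679). Its SE and interval can therefore be too narrow, as for every unblocked mean over the time points given here.

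C4b was higher in KO on 7 of 8 arrays. Its ratios were 0.27 and 0.85 unstimulated, 0.086 and 0.80 after 1 h, 0.30 and 0.87 after 4 h, and −0.077 and 0.91 after 24 h. Again replicate 2 gave the larger ratio each time, and the one negative ratio came from replicate 1 at 24 h. The mean over the time points was 1.42-fold (log2 0.50 ± 0.13, 95% confidence interval 0.20 to 0.80, adjusted p = 0.165). Within replicate 1 the mean ratio was 0.15 for C4b and 0.38 for C2, and within replicate 2 it was 0.86 and 1.16.

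The replicate number was then used as a block, which removes the difference between replicates 1 and 2 shared across time points, also the dye. Its p-values for KO/WT measure how steady the ratio was over time points, not its spread between the 2 replicates. With this block C2 was called at all 4 times and C4b at 2. C2 had adjusted p = 0.00221 unstimulated, 0.0173 after 1 h, 0.00374 after 4 h and 0.00506 after 24 h, and C4b 0.0227 unstimulated and 0.0243 at 4 h. So 2 of the 8 genes were called unstimulated (1.06% of all tested), 1 at 1 h (0.577%), 2 at 4 h (0.568%) and 1 at 24 h (0.585%). In the mean over the time points no gene of the 8 was called without the block (0.563% of all tested) and 4 were called with it (6.01% of all tested): C2 (adjusted p = 2.78e-05), C4b (0.000333), C1qb (log2 0.29, 0.0104) and C1qc (0.18, 0.0441). Without the 4 h arrays, on which Furin was not lower, the blocked mean remained called for C2 (0.75, adjusted p = 0.000242), C4b (0.47, 0.00259) and C1qb (0.27, 0.0293), but not for C1qc. With the block and each array left out in turn, C2 (0.74 to 0.79) and C4b (0.46 to 0.55) were called in all 8 fits. C1qb was called in 6 (0.24 to 0.34), being lost without unstimulated replicate 1 (adjusted p = 0.0765) or 1 h replicate 2 (0.0501). C1qc was called only without 24 h replicate 1, and lost without any other array (0.15 to 0.21, adjusted p = 0.0645 to 0.211). The mean ratio in replicates 1 and 2 was −0.049 and 0.64 for C1qb and −0.040 and 0.40 for C1qc, so that both were above 0 in replicate 2 only. Without the block, leaving out 24 h replicate 2 took their means to 0.17 and 0.10. The 2219 calls behind the 6.01% were 796 without unstimulated replicate 1 and 1059 to 2264 without 1 of the others. The 208 calls behind the 0.563% rested on single arrays. Leaving out unstimulated replicate 1 left 1, and 4 h replicate 2 left 7. There were 22 without 24 h replicate 2, 23 without unstimulated replicate 2, 27 without 1 h replicate 2, 38 without 4 h replicate 1, 61 without 1 h replicate 1 and 161 without 24 h replicate 1.

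The other genes gave ratios that changed sign between arrays. C1qa was lower in KO on all 4 arrays of replicate 1 and higher on all 4 of replicate 2 (mean −0.26 and 0.35). C1qb ranged from −0.28 to 0.92 and C1qc from −0.19 to 0.57, with higher values in replicate 2 at each time. C3 ranged from −0.36 to 0.50 and Cfp from −0.45 to 0.49. Cfb was lower in KO on 7 of 8 arrays, from −0.71 at 24 h in replicate 1 to 0.12, with a mean of −0.17 ± 0.07 (adjusted p = 0.457). Lyz2 was lower in KO in the mean over the time points (log2 −1.18, adjusted p = 0.000484), and the 5 markers of steroid-producing cells summed to 11.38 to 12.82 in replicate 1 and 10.98 to 12.15 in replicate 2. Clu, C1s1 and C1s2, singled out after their values were seen, were lower in KO on all 4 arrays of replicate 1 and higher on all 4 of replicate 2. Clu, the gene of clusterin, was at 12.17 in WT against 9.09 in KO on the unstimulated array of replicate 1 and at 8.36 against 11.11 on that of replicate 2. C1s1, a gene of the C1s protease, was at 8.88 against 6.59 and at 6.78 against 7.72 there, and C1s2 at 9.13 against 6.99 and at 7.03 against 8.11. C2, C4b and the C1q chains likewise had the higher KO/WT ratio in replicate 2. The part of these differences in the ratios was not tested.

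**Figure D3:**
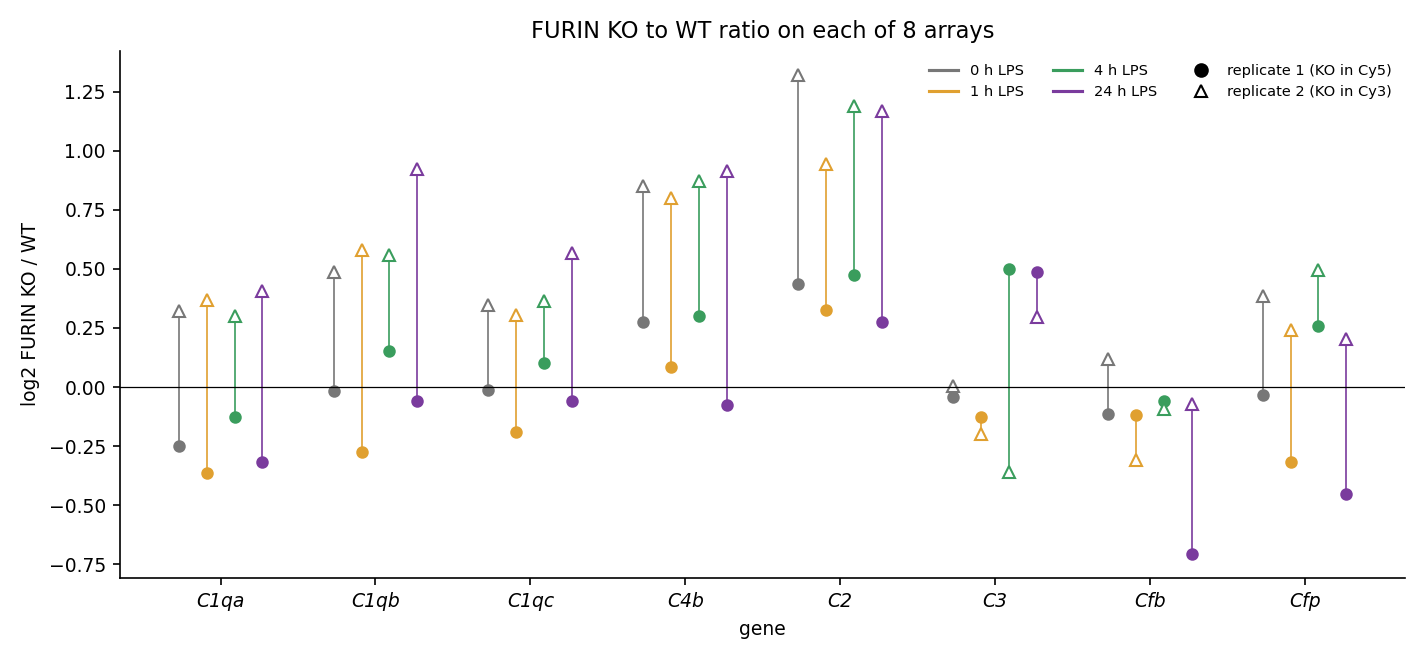
Log2 FURIN KO/WT ratio (y axis) of each gene (x axis) on each of the 8 arrays, coloured by hours of LPS; circles are replicate 1 (KO in Cy5), triangles replicate 2 (KO in Cy3), and a line joins the 2 arrays of a time. All C2 ratios lie above 0, from 0.27 to 1.32, and triangles lie above circles at every time for C1qa, C1qb, C1qc, C4b, C2 and Cfp.

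The response to LPS was compared between genotypes as the change of the KO/WT ratio from the unstimulated arrays. No difference in response was called by limma for any of the 8 genes at 1, 4 or 24 h, where 0%, 0% and 0% of all genes and transcripts tested were, and none of the 8 had an unadjusted p under 0.05 (1.4%, 2.9% and 3.33% of all) or was called with the replicate block (0%, 0.0352% and 0.211% of all). The estimates ran from −0.24 to −0.03 at 1 h, from −0.08 to 0.20 at 4 h and from −0.39 (Cfb) to 0.41 (C3) at 24 h. For C1qc, the gene with the steepest fall, the difference at 24 h was 0.09 (95% confidence interval −0.48 to 0.66), and for C1qb, with a wide interval, 0.20 (−0.64 to 1.04). The widest of the 95% confidence intervals reached 0.91 log2 units to either side of its estimate, so equal responses are not shown. The 3 differences share the unstimulated arrays.

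Other complement genes, taken from a list of 56 components, regulators and receptors, were examined for the pathway around these 8. Of the 55 with a named probe, 24 were above background in all 16 channels and 19 in none. In WT at 24 h of LPS 4 of 54 tested were called higher and 14 lower, where 13.5% and 16.9% of all genes and transcripts tested were. In KO the counts were 4 and 17 (12.8% and 15.9% of all). At 4 h they were 5 higher and 15 lower in WT (15.5% and 19.3% of all) and 6 and 15 in KO (16.3% and 19.7%). The median change over the list at 24 h was −0.09 in WT and −0.07 in KO.

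At 24 h in WT, Vsig4, the macrophage receptor for C3b, fell from 15.58 and 14.94 to 7.28 and 7.16 (263-fold, log2 −8.04 ± 0.28, adjusted p = 1.75e-10). Cd93, once described as a C1q receptor, fell 21.9-fold (log2 −4.45, adjusted p = 1.59e-08), and already 13.6-fold at 4 h. At 4 h C3ar1, the receptor of the C3a fragment, was 4.87-fold lower (adjusted p = 2.67e-08) and Vsig4 6.12-fold lower (adjusted p = 3.83e-06).

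Among the rises, Calr, calreticulin, which binds C1q collagen tails, was 3.21-fold higher in WT at 24 h (adjusted p = 6.29e-08) and Scarf1, a scavenger receptor that binds C1q, 1.39-fold (adjusted p = 0.00765). Scarf1 was above background on 1 of the 2 unstimulated WT arrays (6.62 and 6.41, against 7.05 and 6.93 at 24 h), and its call was lost without unstimulated replicate 2 (adjusted p = 0.0918) or 24 h replicate 1 (0.0694). C5ar1, the C5a receptor, was 5.39-fold higher at 4 h in WT (adjusted p = 2.13e-08) and 1.66-fold at 24 h. Ptx3, a pentraxin that binds C1q, was not well above background on either unstimulated WT array and reached 8.95 and 8.61 after 4 h, at least 5.13-fold higher (adjusted p = 1.08e-07). Serping1, the C1 inhibitor, went from 6.51 and 6.65, above background on 1 of the 2 unstimulated WT arrays, to 7.63 and 7.23 at 4 h (1.80-fold, adjusted p = 0.000909). Between genotypes, in the mean over the time points, Cd55, which speeds decay of the convertases, was 1.41-fold higher in KO (adjusted p = 0.0474) and Itgax, a chain of complement receptor 4, was 1.30-fold lower (adjusted p = 0.0245), against 0.563% of all tested. Both calls were lost whichever of the 8 arrays was left out, the log2 values staying at 0.42 to 0.58 for Cd55 and −0.36 to −0.41 for Itgax.

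**Figure D4:**
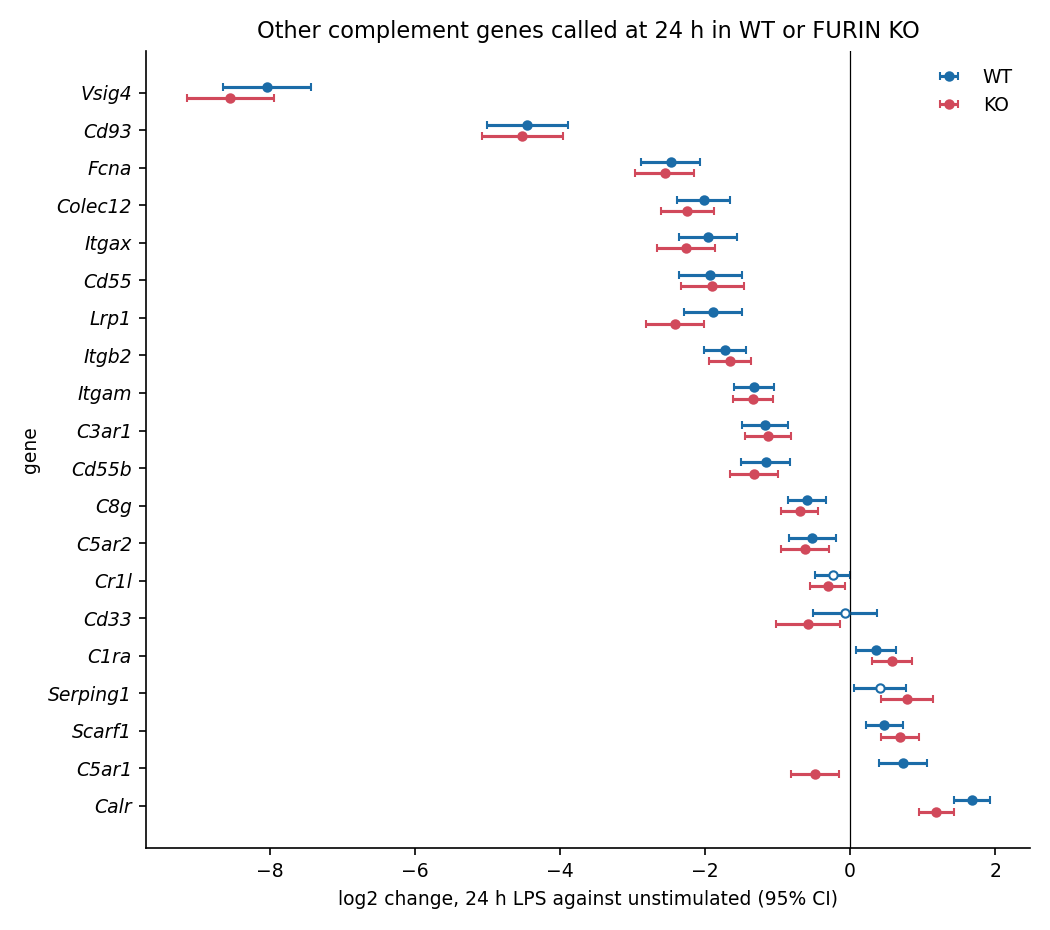
Log2 change at 24 h of LPS against unstimulated (x axis) of 20 of the 21 other complement genes (y axis) called in WT (blue) or FURIN KO (red); bars are 95% confidence intervals and filled points are called. Vsig4 and Cd93 lie far to the left in both genotypes, and C5ar1 is the one gene with opposite calls (0.73 in WT, −0.49 in KO), the KO call being lost without unstimulated replicate 1 (−0.28) or 24 h replicate 2 (−0.33).

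The genes whose levels were most like each member over the 16 channels were found among 8750 named genes with a range of at least 1 log2 unit, as a description, since channels share arrays and time points. For C1qa these were Pros1, the gene of protein S (Pearson r = 0.996), Trf (0.993) and Gas6 (0.991), the latter a bridging ligand, as protein S is, for uptake of apoptotic cells. C1qb was closest to C1qc (0.993), Cpq (0.991) and F5 (0.989), and C1qc to Selenop (0.996), Tmem176a (0.995) and Vsig4 (0.994). Among themselves the 3 C1q chains correlated at 0.976 to 0.993, and C1qc with Cfb at −0.931. C2 was most like Basp1 (0.942), Klra9 (0.936) and Gm8909 (0.931), C4b like Serpinb1c (0.962), Klk1b11 (0.958) and Serpinb1a (0.956), and Cfb like Ubfd1 (0.978), Hcls1 (0.975) and Rrbp1 (0.975). Cfp was most like Cdkn2a (0.929), Nxpe5 (0.901) and Calml4 (0.900), and C3, with the flattest profile, reached only 0.764 with Tspan3, 0.736 with Txnl4b and 0.727 with B430306N03Rik.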

How the data were processed

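The 8 Agilent 2-colour arrays with 62976 spots each (1 slide, 1 scan) hold RNA of FURIN KO and WT peritoneal macrophages at 4 time points, 2 arrays each. Groups follow the sample titles; the labels' growth protocol gives 4 h of stimulation for every sample. The study's methods call the replicates biological. Whether they were separate animals, cultures or pools is not stated. Without the replicate block, p-values measure the spread between these samples. The authors deposited scanner intensities extracted with Agilent Feature Extraction 10.7.3 as median spot and background signals, which were used here because no mean signal was in the files, and processed signals. The authors' deposited matrix holds log2 Cy5/Cy3 ratios, normalized by them; its direction was taken from the dyes, array medians were 0.0030 to 0.0085, r with the ratios computed here was 0.987 to 0.996, its centring is not given in the sources used here, and it served as an alternative.

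Intensities were normalized with limma 3.58.1 in R 4.3.3 (normexp with an offset of 50, loess within and quantile between arrays). Replicate spots were averaged per probe, and a gene was read from its brightest probe. Of 55681 gene probes, 27509 were named, for 20887 genes. Log2 KO/WT ratios were fitted with lmFit and eBayes over all 8 arrays for 36947 features whose mean log2 intensity was 6 or more (4 residual degrees of freedom), and LPS changes with the separate-channel fit lmscFit (36927 tested, within-spot correlation 0.087). Adjustment was by Benjamini-Hochberg over all features of a fit, with a threshold of 0.05. The number of arrays limits the precision. The fits were tested on simulated data without a shared replicate or dye effect, so that test does not cover such an effect. Samples of the same replicate number deviated together (r of 0.475 to 0.679 for ratios, 0.339 to 0.565 for WT and 0.214 to 0.336 for KO channels, over 6 pairs of time points). Pairing of the samples and a dye effect cannot be told apart in these values. The replicate block was run as an alternative. This block is also the dye orientation. The members, gene lists and rules were chosen with earlier results of these data known. Named besides the 8 members were Furin, Lyz2, Il6 and Il1b, other complement genes called between genotypes, the 3 with the largest called rise and fall in WT at 4 and 24 h, and the 3 genes most like each member; 1 gene that this rule names is not reported here. The sequences are from the RefSeq tables, build GRCm38.p6; positions on the array's own build were not used here. Motif matches are letters only. Alternatives changed the scaling, background correction, probe, filter, replicate or test, including the methods' t-test.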

Additional observations from a re-analysis of the deposited data

Results flagged for a closer look

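C5ar1, the C5a receptor, was the one gene, among the 8 and the other complement genes listed, whose response to LPS differed between genotypes by the test with the replicate block, which called 0.0352% of all genes and transcripts tested at 4 h and 0.211% at 24 h. Its KO response minus its WT response was −1.07 log2 units at 4 h (adjusted p = 0.611 without the block and 0.0482 with it) and −1.22 at 24 h (0.249 and 0.00882). At 24 h it was higher than unstimulated in both WT replicates (10.79 and 10.73 to 11.54 and 11.44) and lower in both KO replicates (12.14 and 11.72 to 11.60 and 11.28). The 2 differences share the unstimulated arrays, on which C5ar1 was 1.17 log2 units higher in KO, whereas the ratio was 0.10 at 4 h and −0.04 at 24 h.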

How the results depend on the processing

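Of 144 values of the 8 genes, 67 were called with or without the replicate block, and none of these changed sign under any alternative run. Of the other 77, 51 changed sign under at least 1 alternative, the largest being 0.43 log2 units in size. The replicate block moved the number of the 8 genes called between KO and WT from 0 to 2 unstimulated, 1 at 1 h, 2 at 4 h, 1 at 24 h and 4 in the mean, and from 0 to 2 for 1 h of LPS in KO. It moved no other count by over 1.5 times; it added the calls of C4b, Cfp and C1qb after LPS given above, and those of C4b (−0.42, adjusted p = 0.00788) and Cfp (−0.74, 4.12e-05) in WT from 1 to 4 h, of Cfp in KO from 1 to 4 h (−0.33, 0.0192) and from 4 to 24 h (−0.32, 0.0225), and of Cfp from 1 to 24 h in WT (−0.56, 0.000563) and KO (−0.65, 0.000165). It changed no other call. Without the 4 h arrays, an alternative added after the data were seen, 0 were called in the mean, and 3 with the block. With the block and 1 array left out, also added then, 2 were called without unstimulated replicate 1 or 1 h replicate 2, 4 without either 24 h array (Cfb in place of C1qc without 24 h replicate 2) and 3 otherwise. The methods' t-test called, after Benjamini-Hochberg adjustment, 0 of the 8 in WT at 4 h, 0 in WT at 24 h, 0 in KO at 4 h and 4 in KO at 24 h, with log2 changes as in the limma fit. Unadjusted it called 3 in WT at 4 h (31.1% of all tested), 1 in WT at 1 h (13.2%), 5 in KO at 1 h (13.7%) and, between genotypes, 1 at 1 h (4.75%). The cause was not tested. With each array left out in turn and no block there were 4 to 7 calls in WT at 4 h, 6 to 7 in WT at 24 h, 3 to 7 in KO at 4 h, 6 to 7 in KO at 24 h, 3 to 5 from 1 to 4 h in both genotypes, 5 to 6 from 4 to 24 h in WT, 5 to 7 in KO, and 0 in each comparison of genotypes, of responses and at 1 h. In KO at 4 h only 3 were called without unstimulated replicate 1 or without 4 h replicate 2, and in WT from 1 to 4 h 3 without 1 h replicate 1. Loess without scaling between arrays moved the median of all genes from 1 to 4 h by −0.16 in WT and −0.16 in KO. The mean C2 ratio stayed between 0.65 and 0.88 and the mean C4b ratio between 0.38 and 0.63 in all alternatives run.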
